A study of Mus musculus with 82 samples.

Results

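Runs of HP1γ peaks were described at 10 mouse protein-coding genes: Tmem267, Glb1, Tmppe, Ppm1b, Cep57l1, Trak1, Ezr, Xkr6, Zyg11b and Cops7a. The genes were chosen by their number of listed HP1γ peaks, inside the gene or within 10 kb of it, out of 21523 protein-coding genes on chromosomes 1 to 19 and X. Their peak counts are therefore a description and not a finding. A run is a group of HP1γ peaks in which no gap between neighbours exceeds 10 kb. In all, 63 of the 2047 listed HP1γ peaks lay in the 10 genes or within 10 kb of them, and 51 of these overlapped a gene. The name "internal runs" suited 8 of the genes, which held 5 to 8 peaks each. Tmppe held none, because its 6 peaks lay just past its upper end inside the surrounding gene Glb1, and Cops7a held 2 while 5 lay below its lower end.

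The study used mouse embryonic stem cells of a hybrid 129-C57BL/6 background, grown in 2i medium with LIF, and its labels give 82 samples in 32 groups. The HP1γ list rests on cells whose Cbx3 gene, which encodes HP1γ, carries a FlagAvi tag (Cbx3 FlagAvi; 3 ChIP replicates) and on the same tagged allele without Adnp (Cbx3 FlagAvi, Adnp KO; 3 ChIP replicates). The Adnp list rests on cells with a tagged Adnp gene (Adnp FlagAvi; 3 ChIP replicates). None of these cultures was treated, and streptavidin beads captured the tagged proteins from sonicated, crosslinked chromatin. Each list is 1 pooled file, so no value below has a replicate error or a test, and sequencing depth is unknown. The HP1γ list is labelled as peaks without the Adnp motif, and its peak names point to the Adnp knockout, so the genotype behind a single peak is not known here.

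HP1 proteins bind histone H3 methylated at lysine 9 through their chromodomain and partner proteins through their chromoshadow domain. HP1γ is found in heterochromatin and also along active genes. Adnp, a zinc finger and homeodomain protein, forms the ChAHP complex with the remodeller Chd4 and HP1 and carries HP1 to sequence-specific sites. Peaks of HP1γ inside gene bodies can thus be compared with the positions of Adnp.

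Whether the 10 genes share a pathway was not tested. Glb1 encodes the lysosomal β-galactosidase, and Tmppe a membrane protein with a metallophosphoesterase domain. Ppm1b is a metal-dependent serine/threonine phosphatase. Trak1 is an adaptor that links mitochondria to kinesin motors, and Ezr (ezrin) ties the plasma membrane to actin. Cep57l1 is a paralogue of the centrosomal protein Cep57, and Xkr6 belongs to the XK-related membrane proteins. Zyg11b is a substrate receptor of a cullin ubiquitin ligase, and Cops7a is a subunit of the COP9 signalosome, which removes Nedd8 from cullins. Tmem267 encodes a transmembrane protein.

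HP1γ peaks overlapped a listed start site in 2 of the genes, Tmem267 and Cops7a, and the window of the first listed start of each is shown. In Cops7a the start overlapped is the second one, whose window is not shown. RefSeq promoter windows on GRCm38.p6, each 250 bases before to 50 after a listed start, were matched for 8 of the 10 genes with 16 windows. Capitals mark the bases under an HP1γ peak. The Tmem267 window is chr13:119487836-119488135 on the plus strand, and the Cops7a window is chr6:124965463-124965762 on the minus strand.

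Tmem267: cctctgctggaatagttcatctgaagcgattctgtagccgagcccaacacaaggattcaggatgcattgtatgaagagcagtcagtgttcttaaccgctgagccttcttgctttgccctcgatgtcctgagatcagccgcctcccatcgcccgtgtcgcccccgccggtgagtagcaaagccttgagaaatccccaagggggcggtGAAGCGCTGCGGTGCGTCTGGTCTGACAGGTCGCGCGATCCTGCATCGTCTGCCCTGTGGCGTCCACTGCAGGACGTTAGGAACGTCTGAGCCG

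Cops7a: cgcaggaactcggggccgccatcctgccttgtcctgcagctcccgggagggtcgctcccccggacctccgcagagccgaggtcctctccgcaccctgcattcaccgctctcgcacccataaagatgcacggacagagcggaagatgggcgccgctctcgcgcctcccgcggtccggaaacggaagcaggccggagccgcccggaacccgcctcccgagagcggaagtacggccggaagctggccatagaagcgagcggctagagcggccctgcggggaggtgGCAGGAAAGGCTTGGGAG

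The Tmem267 peak (119488042 to 119488327) covered 94 bases of this window and 105 bases of the window of a second listed start at 119488473. The Cops7a peak (124965161 to 124965480) covered the last 18 bases of the window shown, downstream of its start at 124965512, which the peak did not reach. It covered 264 of the 300 bases of the window of a second start at 124965266, and that start lay under the peak. Both second windows were rich in CpG, with 50 CpG in Tmem267 and 37 in Cops7a, where the median window of all genes held 7. This was not particular to windows under a peak, as the median of the 16 member windows was 22. Member windows without an HP1γ peak held from 3 CpG in Ppm1b to 41 in Trak1. In all, 4 of the 16 windows of the members overlapped an HP1γ peak, and none of the 16 an Adnp peak. Of all 32619 windows, 0.38% overlapped an HP1γ peak and 0.981% an Adnp peak.

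In Glb1, Ppm1b, Trak1 and Xkr6 every inside peak had its centre more than 10 kb from either end of the gene. Over all members, of the 51 HP1γ peaks inside them, 35 met this distance and 3 lay within 1 kb of an end, with a median distance of 14.5 kb from the nearer end. Long genes leave more room for such distances, and HP1γ peaks inside other genes were not measured in this way. Holding at least 5 HP1γ peaks, as 8 of the members do, was met by 10 protein-coding genes in all (0.0465%). At least 1 was held by 2.86%, and all 10 members, with 0.065% of genes, had 5 or more inside or within 10 kb. HP1γ peaks covered 0.749% of Xkr6, 1.50% of Cops7a, 1.58% of Trak1 and 1.90% of Tmem267. The share was 2.31% of Zyg11b, 2.34% of Cep57l1, 4.16% of Glb1, 6.66% of Ppm1b and 6.99% of Ezr. Coverage of at least 1% was reached by 8 members and by 0.943% of protein-coding genes. The order of coverage differed from the order of counts. Both gene length and the width of the inside peaks enter the share covered. Among the 8 members with 5 or more inside peaks, length ran from 44.7 kb in Ezr to 239 kb in Xkr6. Their median peak width, with peaks within 10 kb included, ran from 283 bp in Glb1 to 728 bp in Ezr.

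**Figure D1:**
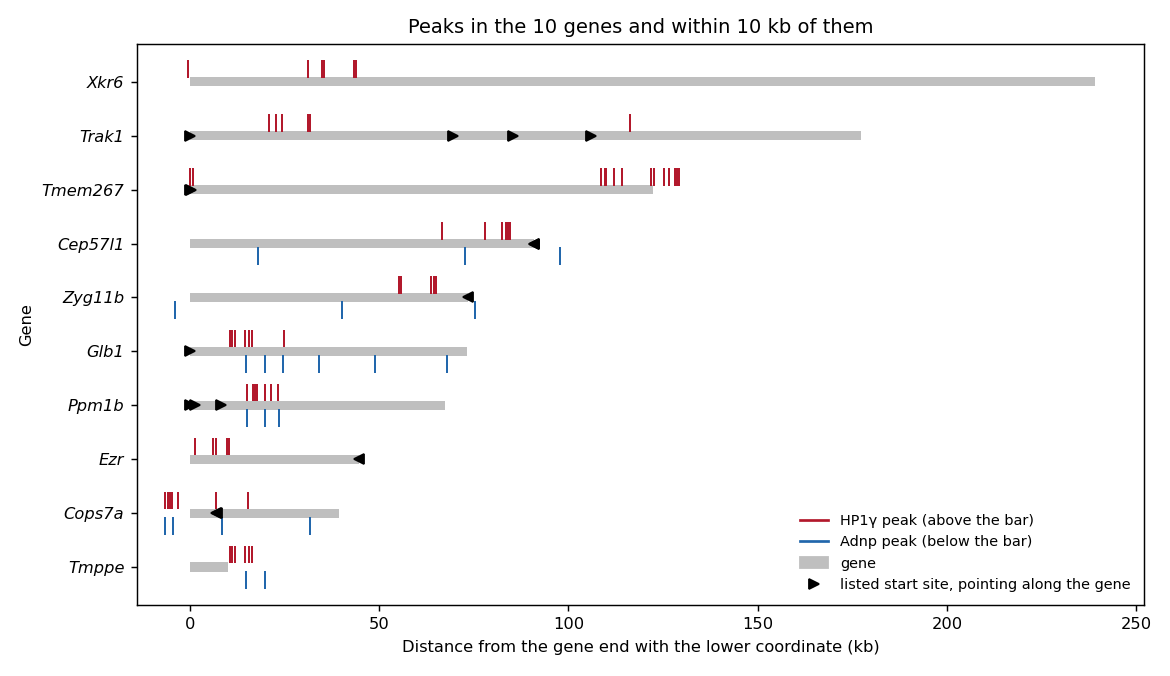
HP1γ peaks (red, above) and Adnp peaks (blue, below) in the 10 genes and within 10 kb, by distance in kb from the gene end with the lower coordinate; grey bars are genes and black arrows listed start sites. Most red marks of a gene gather in 1 stretch, with a second group in Tmem267 and single peaks in Trak1, Cep57l1 and Xkr6; they lie past the end of Tmppe and mostly below Cops7a.

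The runs of Glb1, Ppm1b, Cep57l1, Zyg11b and Trak1 lay in the first part of the gene, downstream of its first listed start. In Glb1 (chromosome 9, 114401078 to 114474379) the run spanned 114411596 to 114426030, which is 10.5 to 25.0 kb from the start. Its 7 peaks formed 2 tight groups of 3 with a last peak farther on, and the gaps ran from 103 to 8095 bp. The widest peak of Glb1 spanned 1022 bp (114416259 to 114417280). The first 6 peaks were also the 6 assigned to Tmppe (114401095 to 114411201), whose upper end lies 0.524 kb from the centre of the first.

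Ppm1b held the densest run. On chromosome 17 (gene 84956741 to 85023992), 7 peaks lay within 8.75 kb, from 84971237 to 84979990, which is 14.5 to 23.2 kb from the first of 3 listed starts and past all of them. Peaks covered 51.2% of the extent of this run, against 11.2% to 32.1% in the runs of the other genes. The widest peak of the members lay here, with 1718 bp (84977167 to 84978884). The gaps of Ppm1b ran from 167 to 1790 bp, so no long interval broke this run.

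In Cep57l1 (chromosome 10, 41718840 to 41809868, minus strand) 5 peaks lay between 41796757 and 41803476, which is 6.39 to 13.1 kb from the start. Of these, 4 lay close together on the side of the start, at 41801148 to 41803476, and the widest spanned 449 bp. One more peak of 624 bp (41785017 to 41785640) lay 11.1 kb farther into the gene. In Zyg11b (chromosome 4, 108227755 to 108301125, minus strand) the 5 peaks fell into a pair and a group of 3, parted by a gap of 7543 bp. They spanned 108282888 to 108292931, or 8.16 to 18.2 kb from the start, with widths of 211 to 477 bp and a median of 373 bp.

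In Trak1 (chromosome 9, 121297502 to 121474919) 5 of the 6 peaks lay at 121317960 to 121329332, which is 20.5 to 31.8 kb from the first listed start and before the other 3. They formed a group of 3 and a pair with a gap of 6137 bp between them. The remaining peak, of 274 bp, lay alone at 121413757 to 121414030, 10.4 kb past the last listed start. Xkr6 (chromosome 14, 63606530 to 63845706) is the longest member, and its 5 inside peaks were confined to 63637518 to 63650571, which is 31.0 to 44.0 kb from its lower end. A peak of 558 bp (63605795 to 63606352) lay just below that end, inside the lncRNA gene Gm15918. The last 2 peaks of the Xkr6 run also lay in the lncRNA gene Gm38524 (63649496 to 63666182), so these peaks belong to both genes.

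Ezr and Tmem267 carried their runs at the far end. In Ezr (chromosome 17, 6738131 to 6782780, minus strand) the 5 peaks lay at 6739030 to 6748748, which is 34.0 to 43.8 kb from the start. These were wide peaks, with a lowest width of 370 bp, a median of 728 bp and a highest of 873 bp. Tmem267 (chromosome 13, 119488086 to 119610459) had 2 separate groups. The first pair sat at the start, at 119488042 to 119489235, and the lncRNA gene 3110070M22Rik overlaps its first peak. The second group had 12 peaks from 119596697 to 119617512, of which 6 lay in the last part of the gene and 6 past its end. This was the sole run of 8 or more peaks on chromosomes 1 to 19 and X, and no HP1γ peak is listed beyond it on chromosome 13. The wider peaks of this group were outside the gene, where 4 of the 6 measured 426 bp or more, while the 6 inside measured 201 to 372 bp.

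The Cops7a run (chromosome 6, gene 124958445 to 124997903, minus strand) spanned 22.3 kb in all, from 124951635 to 124973907. Its first 5 peaks, at 124951635 to 124955441, lay outside every annotated gene, between Cops7a and Mlf2, whose upper end is 15.5 kb below the run. Gaps of up to 9719 bp link them to the peak near the start sites and to a last peak at 124973637 to 124973907. The latter lay inside the gene as annotated but before both listed starts. With gaps of at most 5 kb, only the 5 peaks outside Cops7a form a run.

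**Figure D2:**
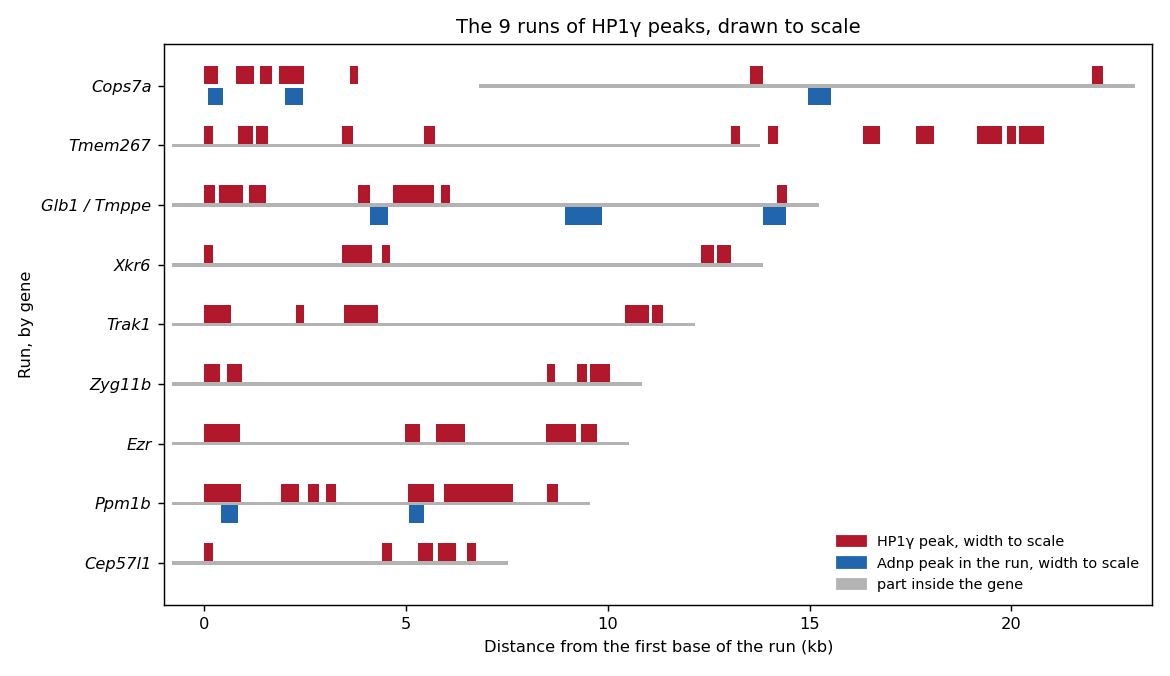
The 9 runs of at least 3 HP1γ peaks, aligned at their first base and drawn to scale in kb; red boxes are HP1γ peaks, blue boxes Adnp peaks inside the run and grey lines the part inside the gene. Most runs consist of tight pairs and triplets parted by gaps of several kb, and Adnp peaks appear in the runs of Cops7a, Glb1 and Ppm1b.

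The 9 runs held 58 peaks and had a median extent of 11.4 kb. They were 9 of the 17 runs with at least 5 peaks on chromosomes 1 to 19 and X, which the choice of genes by number of peaks favours. The other 68 runs of at least 3 peaks had a median of 3 peaks and a median extent of 3.58 kb. Their peaks covered a median of 44.4% of the extent, against 21.1% in the runs of the 10 genes. Gaps between neighbouring peaks had a median of 653 bp (quartiles 167 and 2004 bp, 49 gaps) in the runs of the genes and 338 bp (quartiles 146 and 1095 bp, 175 gaps) in the other runs. Gaps under 200 bp made up 30.6% and 37.1% of these. With peaks joined at gaps of at most 10 kb, the runs of the genes were by these medians longer and sparser than other runs. The choice of genes also sets them apart in number of peaks, and each further peak adds to an extent. Their greater median extent is therefore a description and not a finding. Runs of at least 5 peaks spanned 6.72 to 22.3 kb in the genes and 2.07 to 13.1 kb elsewhere. With gaps of at most 5 kb the median extent of the genes' runs was 5.90 kb, and the other runs were not measured at that setting.

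**Figure D3:**
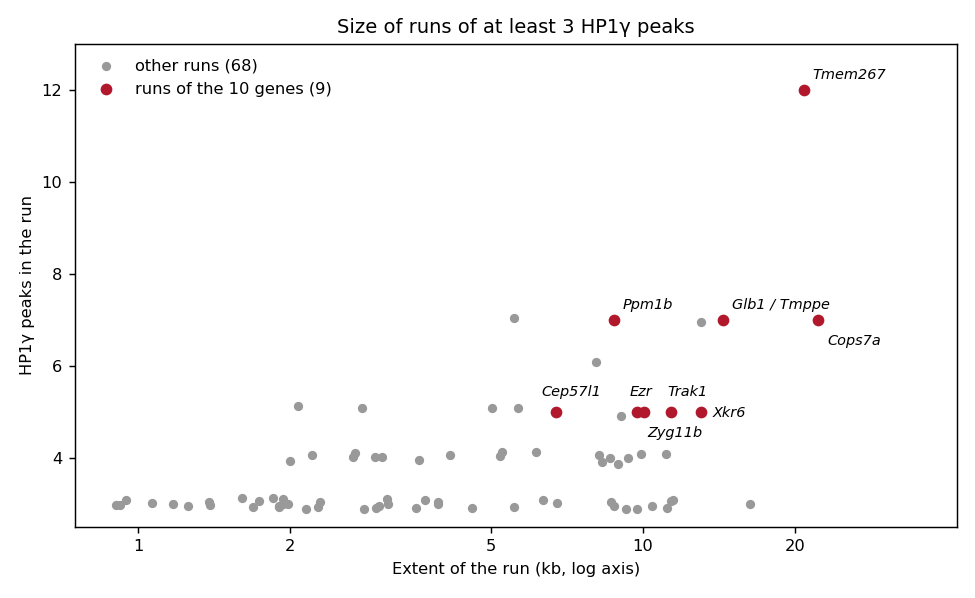
Number of HP1γ peaks against extent in kb (log axis) for the 77 runs of at least 3 peaks, red for runs of the 10 genes and grey for the others, which carry a small vertical offset to separate points. The Tmem267 run stands highest with 12 peaks, and the runs of Ppm1b, Glb1 and Cops7a have 7 each.

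The distance from a run to the nearest other HP1γ peak differed widely between the genes, and it was not measured for the rest of the list. The nearest HP1γ peak outside the run was 3670 kb away for Ezr, 1017 kb for Zyg11b, 930 kb for Ppm1b and 298 kb for Cops7a. It was 107 kb for the long Tmem267 run, where it is the pair at the start of the same gene. For Trak1 and Glb1 a listed peak lay 35.1 and 21.7 kb below the run, and for Xkr6 and Cep57l1 the nearest was the single peak of the same gene, 31.2 and 11.1 kb away.

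HP1γ peaks of the genes had a somewhat higher median width than the rest of the list. The median width of the 63 peaks was 337 bp (quartiles 255 and 569 bp), against 304 bp (quartiles 232 and 447 bp) for the other 1937 peaks on these chromosomes. Peaks of at least 600 bp made up 22.2% of the members' peaks (14 of 63, 95% Wilson interval 13.7% to 33.9%), 11.0% of the rest (9.68% to 12.5%) and 17.7% of the peaks of other runs (13.4% to 23.0%). These intervals cover counting error only, and peaks of 1 gene are not independent. The lowest width, 199 bp, was the same in the genes and in the rest. Medians by gene ran from 283 bp in Glb1 and 289 bp in Tmem267 to 434 bp in Ppm1b and 728 bp in Ezr, a wider range than the difference from the list.

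**Figure D4:**
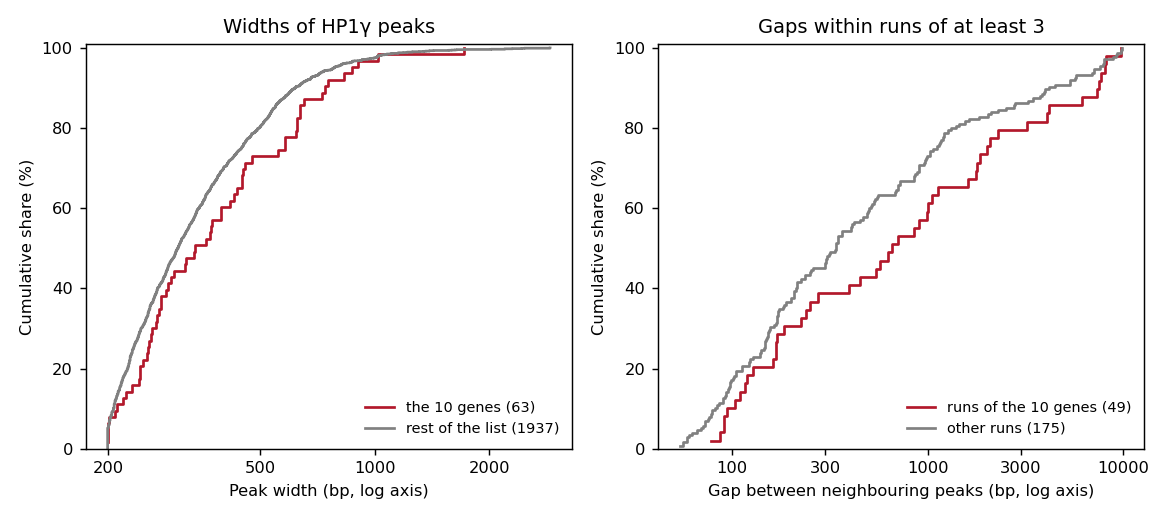
Cumulative share in % of HP1γ peaks by width (left; 63 peaks of the 10 genes and 1937 others) and of gaps between neighbours in runs of at least 3 peaks (right; 49 and 175 gaps), both on log axes in bp. Over most of the range the red curves of the 10 genes lie to the right, with medians of 337 against 304 bp for widths and 653 against 338 bp for gaps.

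Adnp peaks lay in the runs of 3 genes and were absent from the other 6 runs. In Glb1 there were 3 within the run, with authors' scores of 16.3, 40.0 and 63.5. The highest, at 114425441 to 114426018, overlapped the last HP1γ peak of Glb1 by 234 bp, and the lowest lay between 2 HP1γ peaks, 14 bp from one of them. Glb1 held 3 more Adnp peaks beyond the run, with scores of 9.54, 9.04 and 28.1. In Ppm1b the 2 Adnp peaks of the run (84971646 to 84972062 and 84976315 to 84976667) lay whole within HP1γ peaks, and both had a score of 14.3, below the list's median of 21.2. Another Adnp peak of Ppm1b, with a score of 8.76, lay 146 bp past the last HP1γ peak.

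Cops7a had 3 Adnp peaks in its run. The first 2 overlapped HP1γ peaks in the part below the gene, by 240 and 445 bp, with scores of 31.2 and 7.39. The last of them, with a score of 57.2, lay inside the gene at 124966587 to 124967155, 1.11 kb from the HP1γ peak near the start sites. One more, with a score of 33.6, lay farther inside Cops7a. Of the 8 Adnp peaks in the runs, 4 scored above the median of the Adnp list, whose scores run from 3.66 to 565.

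Cep57l1 and Zyg11b had Adnp peaks near but not in their runs. An Adnp peak of Cep57l1 (41791313 to 41791813, score 6.92) lay between the single HP1γ peak and the run, 4.94 kb from the latter. In Zyg11b the peak inside the gene lay 14.6 kb from the nearest HP1γ peak, and one past the start, with a score of 43.7, lay 9.74 kb away. Tmem267, Trak1, Ezr and Xkr6 had no Adnp peak inside or within 10 kb. The distance from a listed HP1γ peak of the gene to the nearest Adnp peak was at least 33.1 kb in Trak1, 39.7 kb in Tmem267, 77.5 kb in Xkr6 and 573 kb in Ezr.

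Adnp peaks were counted in the genes as a whole beside other genes, without a test. Of the 10 members, 5 held an Adnp peak, against 20.7% of all protein-coding genes. Of the 9 longer members (39.5 to 239 kb) it was 5 as well, against 40.4% of the 5306 genes in that length range. Within 10 kb it was 6 of 10, against 35.6%, where Tmppe counted only through peaks that lie inside Glb1. The 3 members of at least 100 kb (Tmem267, Trak1 and Xkr6) held none, where 45.1% of the 2425 genes of that length held at least 1. The HP1γ list is labelled as peaks without the Adnp motif, with names that point to the Adnp knockout. How the list was made may thus limit every overlap or absence counted here, in the genes and in the rest. Of the 63 HP1γ peaks of the genes, 5 overlapped an Adnp peak (7.94%, 95% Wilson interval 3.44% to 17.3%). In the rest of the list it was 298 of 1937 (15.4%, 13.8% to 17.1%) and in other runs 33 of 243 (13.6%, 9.84% to 18.5%), so the intervals overlap. With peak centres within 1 kb counted, the shares were 15.9% for the genes and 18.0% for the rest. An Adnp peak lay in 3 of the 9 runs of the genes and in 24 of the 68 other runs.

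The peak names carry a running number that follows position along each chromosome, so numbers absent from a run can be counted. In the HP1γ list as a whole 654 of 2701 numbers (24.2%) are absent. Within the 9 runs 6 of 64 numbers were absent (9.38%), and within the other 68 runs 5 of 248 (2.02%). Only numbers between the first and last listed peak of a run were counted, so these shares cannot be set against that of the whole list. The 2 kinds of run also differ in extent and gaps, so their shares are not like for like. Glb1 lacked 3 numbers, Ezr 2 and Xkr6 1, while the runs of Tmem267, Ppm1b, Cep57l1, Trak1, Zyg11b and Cops7a were complete. The interval of the last number missing in Glb1 (114417690 to 114425784) overlaps 2 Adnp peaks, those at 114420523 and 114425441. No Adnp peak lay in the intervals of the other 5. What the absent numbers stood for is not known here, and the counts for Glb1, Ezr and Xkr6 are of listed peaks.

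Of 36 paralogues and complex partners of the members, 1 held an HP1γ peak, close to the 2.86% of all protein-coding genes. This was Cops4, another subunit of the COP9 signalosome, with 3 HP1γ peaks and 1 Adnp peak. Zer1, a relative of Zyg11b, had 1 HP1γ peak within 10 kb. None of the 11 other Ppm1 phosphatase genes, the 6 other Xkr family genes or the 3 relatives of Ezr had one inside or within 10 kb. With 2.86% of all genes holding a peak, such absences in small families say little. The share of all genes with an HP1γ peak within 10 kb was not counted. Adnp peaks lay in 10 of the 36, beside 20.7% of all protein-coding genes, and in or within 10 kb of 15, beside 35.6%. Zyg11a, the closest relative of Zyg11b and also on chromosome 4, held 3 Adnp peaks and no HP1γ peak.

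Just at the threshold of 5 inside peaks, Il3ra and Trim24 held as many as Ezr, Xkr6 and Zyg11b but are not among the 10 genes. Il3ra is short (9.58 kb), and HP1γ peaks covered 44.2% of it, far above the 0.749% to 6.99% of the 9 longer members. Trim24 (97.6 kb, 4.39% covered) resembled Glb1 in coverage. A further 10 genes held 4 HP1γ peaks, among them Adam19, Asmt, Cmc2, Crlf2, Ctbp2 and Haus4. With peaks within 10 kb included, 14 protein-coding genes had 5 or more, so this count alone does not single out the 10 members. Crlf2, with 5, was among the others.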

How the data were processed

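Peak positions were read from 2 lists that the authors deposited, with no header line: start, end, name and score. For Adnp the authors gave each peak a positive score, whose meaning no header explains. The deposited score of the HP1γ list is 0 in every line and was not used. Per the submitters' processing notes, the build was mm10 (GRCm38) and the tools, listed without roles, were MACS2, edgeR, STAR 2.5.0a, Bowtie 1.0.0 and bcl2fastq 1.17. How peaks were called was not given in the sources used here. Starts were changed to count from 1.

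Genes came from a RefSeq table of GRCm38.p6, limited to chromosomes 1 to 19 and X and starts of at least 3 Mb; it has no exons. A peak counted as inside when any base lay in the gene, and as overlapping at 1 bp or more. Neighbouring HP1γ peaks with a gap of at most 10 kb formed a run, and runs of 3 or more were described. Shares carry 95% Wilson intervals. The peak positions are pooled over replicates, so no test was made. The genes, lists and rules were chosen with earlier results of these data known. Named genes were the 10 members, genes on their runs, genes at the threshold and partners with an HP1γ peak. Counting was tested on simulated data. Scripts ran on pandas 2.3.3, SciPy 1.17.1 and NumPy 2.4.6 under Python 3.11.15, and figures were drawn with matplotlib 3.10.9.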

Additional observations from a re-analysis of the deposited data

How the results depend on the processing

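No paired analysis was possible because both lists are pooled over replicates and hold no value per sample. Of 75 values under alternatives, 61 stayed within 1.5 times the reported count or median, or within the interval of the reported share. Joining peaks at gaps of at most 5 kb instead of 10 kb gave 10 runs of 49 peaks in place of 9 runs of 58, with a median extent of 5.90 kb in place of 11.4 kb. The 8 Adnp peaks in the runs became 5 with those gaps, a choice made after seeing the data, 4 with scores above the median and 13 within 10 kb of a run. The overlap with Adnp fell to 3.17% for the genes and 7.69% for the rest with scores above the median. For the rest it was 13.6% with an overlap of 50% of the shorter peak, 18.0% with centres within 1 kb and 13.6% for peaks of other runs. Leaving out 1 gene at a time, the members' share ran from 5.36% to 10.2% and their median width from 319 to 365 bp. Median distances were 24.8 kb from the lower and 46.0 kb from the upper gene end, against 14.5 kb from the nearer one. Thresholds of 4 and 6 inside peaks were met by 20 and 5 genes, and HP1γ peaks within 10 kb by 2 of the 36 partners. Unknown depth limits every absence: a peak not listed may have missed the authors' threshold.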

Other observations

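Outside the 10 genes, 2 further runs on chromosomes 1 to 19 and X had 7 HP1γ peaks, and neither lay on a protein-coding gene. The run on chromosome 9 at 123924356 to 123937420 spanned 13.1 kb with no Adnp peak, close in extent to the Glb1 run (14.4 kb, 3 Adnp peaks) on the same chromosome. The run on chromosome 8 at 125693644 to 125699198 spanned 5.56 kb and held 4 Adnp peaks, more than any run of the 10 genes. Of all 17 runs of at least 5 peaks, 12 lay on a protein-coding gene. These 12 include the 9 runs of the 10 genes, which were chosen among protein-coding genes, so the share is raised by that choice.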
